A study of Mus musculus with 20 samples.

Results

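Breast tumors of 4 control mice were compared with 3 cultures of tumor cells that, like the tumors, keep working cathepsin D (Ctsd), a lysosomal aspartic protease. The comparison asks which programs of the tissue are missing from cells grown alone and which are higher in them. Samples were taken by title: WT replicates 1 to 4, called tumors 1 to 4 here, and WT-1%FCS replicates 1 to 3, called cultures 1 to 3. These are 7 of the 20 samples in the series. The series was made to learn what loss of Ctsd does in mammary cancer driven by the polyoma middle T antigen (PyMT). It also holds Ctsd-deficient tumors, Ctsd-deficient cells in the same medium, and cells of both genotypes kept in that medium for 12 weeks.

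The tumor samples are breast tumor tissue from PyMT mice 18 weeks old and labelled wild type. Per the study's methods the strain background is C57BL/6 N, the mouse mammary tumor virus promoter drives PyMT, and mice with untargeted (+) or loxP-flanked (fl) Ctsd alleles counted as controls. Which of these alleles the 4 mice carried was not found in the sources used here. The cells are a spontaneously immortalized line from the breast tumor of 1 Ctsd+/+ PyMT mouse, grown for 10 days in DMEM/F12 with 1% fetal calf serum (FCS), L-glutamine, penicillin and streptomycin, a mild starvation medium. Per the study's methods this tumor was at end stage, whereas the tumor samples were taken at 18 weeks. The 3 cultures are replicates of this line, so the p-values measure spread between mice on one side and between dishes of 1 line on the other. Total RNA was sequenced from both. A bulk tumor contains stroma, vessels, fat and immune cells beside the cancer cells, and fewer cells of a type and less RNA per cell cannot be told apart in it.

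The tumors gave 62327541, 61243159, 61064696 and 49725437 gene counts and the cultures 34533201, 35822529 and 37035232. Counts that ignore the strand were used for all 7 samples, since the tumor libraries are unstranded (52.8% to 53.7% of strand-assigned counts on the opposite strand) and the culture libraries are stranded (97.1% to 97.2%). The tumors share 1 sequencing run, culture 1 has a run of its own and cultures 2 and 3 share another. No tumor shares a library type or a run with a culture. Per the study's methods, far less tissue RNA than cell RNA also went into the libraries. Material, library type, RNA input and run therefore cannot be told apart. For this reason a gene was called only when the adjusted p was under 0.05 and the difference exceeded 3 on the log2 scale, which is 8-fold. Tumor 4 stands apart in several measures. It has the fewest counts, 15.6% of its reads fall on several genes at once (8.44%, 9.44% and 12.4% in tumors 1 to 3, 3.44% to 3.47% in the cultures), and an annotated ribosomal RNA gene takes 3.03% of its counts (0.896%, 1.33% and 2.24% in tumors 1 to 3). The sum of its skeletal muscle genes is also far above that of the other tumors.

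Before the comparison, the labels were checked against markers. Ctsd (ENSMUSG00000007891, chromosome 7, 142375911 to 142388038 of GRCm38) stood at 1749, 2537, 1715 and 2353 CPM in the tumors and 4168, 2845 and 1269 CPM in the cultures, where CPM are counts per 1000000, scaled by edgeR and listed in the order of tumors 1 to 4 and cultures 1 to 3. The groups overlap, with a log2 difference (tumors minus cultures, ± SE) of -0.40 ± 0.41 (edgeR quasi-likelihood, Benjamini-Hochberg adjusted p = 0.396). Without culture 1 the difference is 0.0020, with an edgeR quasi-likelihood, Benjamini-Hochberg adjusted p of 0.997. Epcam, an adhesion protein of epithelia, read 359.9, 493, 375 and 664 CPM in the tumors and 128, 170.1 and 145 CPM in the cultures, and E-cadherin (Cdh1) read 426, 367, 233 and 173 CPM in the tumors and 232, 306 and 259 CPM in the cultures. Epcam is lower in all cultures than in any tumor and Cdh1 overlaps, and neither passes 8-fold. Ptprc (CD45, on all white blood cells) read 24.99, 34.6, 22.5 and 27.7 CPM in the tumors and 0, 0.0304 and 0 CPM in the cultures, which is a ratio of 2708 (interval 486 to 106949.7). The interval is the exact 95% Poisson interval of the summed counts of the lower group and accompanies a ratio where every sample of that group has 3 counts or fewer but not all have 0. Pecam1, a surface protein of endothelium, read 31.2, 41.2, 17.6 and 16.4 CPM in the tumors and 0.179, 0.0304 and 0.131 CPM in the cultures, and Adipoq, the fat hormone adiponectin, read 40.3, 132, 23.1 and 215 CPM in the tumors and 0 in each culture. All 3 are near or at 0 in each culture. Xist, the RNA of the inactive X chromosome, read 181, 189, 301 and 74.05 CPM in the tumors and 336, 358 and 369 CPM in the cultures, and all 4 Y-linked genes checked have 3 counts or fewer in each of the 7 samples. The sex check list therefore has 1 tested gene of 5, not called, with a log2 difference of -0.93, or 0.44 with the trend over exon length taken out, an alternative added after seeing the data.

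Of 18124 genes tested, 3399 (18.8%) were called higher in the tumors and 1188 (6.55%) higher in the cultures (edgeR quasi-likelihood test, Benjamini-Hochberg adjusted p under 0.05). At any size, 7422 and 5673 genes pass the same adjusted p. The groups do not overlap in 3291 of the 3399 and in 1181 of the 1188, and of all tested genes in 7451 with the tumors above and in 5909 with the cultures above. Among the 3399 are 2024 genes with 3 counts or fewer in every culture. Their fitted size is no bound, and in 785 of them the tumor mean is less than 8-fold above the level that 3 counts would give. Against such genes a lower bound is written as at least N-fold when every sample of the low group is at 0. It sets the low group at 3 counts in its smallest library, 0.0911 CPM in the cultures and 0.0707 CPM in the tumors, and covers counting error only. With such genes set at this bound, the median log2 difference of all tested genes is -0.05.

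A plainer count needs no fit. Of 13095 genes with at least 1 CPM in every tumor, 671 (5.12%) have 3 counts or fewer in each culture, 574 of them protein-coding. Of 11965 genes with at least 1 CPM in every culture, 29 (0.242%) have 3 counts or fewer in each tumor, 20 of them protein-coding. At 10 CPM in place of 1 CPM the counts are 134 and 2. Of the 671 genes, 374 also have 3 counts or fewer in all 12 cell samples of the series, of both genotypes and both times. The difference also runs with transcript length. From the shortest to the longest of 5 equal groups by exon length, the median log2 difference of protein-coding genes is 1.67, 0.62, -0.03, -0.46 and -1.03. The median exon length is 3090 bases in protein-coding genes called higher in tumors, 5499 in those called higher in cultures and 4331 in all tested. Whether material or library preparation carries this trend cannot be told apart.

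**Figure D1:**
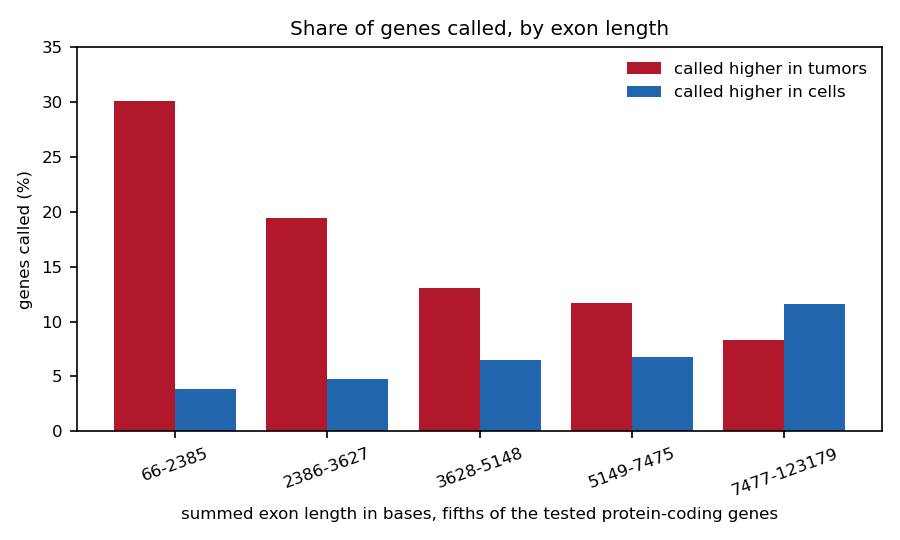
Percent of tested protein-coding genes called higher in the tumors (red bars) and in the cultures (blue bars), in 5 equal groups by summed exon length in bases. From the shortest to the longest group the share goes from 30.1% to 8.30% for the tumors and from 3.83% to 11.6% for the cultures.

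As background, a mammary tumor in the mouse is an organ-like mixture. Cancer cells of luminal type sit on a basement membrane beside fibroblasts, vessels, nerves and the mammary fat pad, and macrophages and lymphocytes move through it. Milk genes answer to prolactin and to contact with the basement membrane, and are readily lost on plastic. Cells on a stiff, flat dish spread, and the coactivator YAP then enters the nucleus and switches on genes of adhesion and matrix. Where cholesterol is scarce, the transcription factor SREBP2 raises the genes for its synthesis.

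The 14 lists of markers of other cell types give the widest contrast. Of 190 members 172 were tested, 142 were called higher in the tumors and 1 higher in the cultures. The 4 epithelial lists have 38 and 0 of 66 tested (67 members), the 3 lists of fibroblast, mesenchymal and basement membrane genes 15 and 17 of 52, and the 13 lists of processes often altered in culture 31 and 40 of 240 (242 members). All lists are read against 18.8% and 6.55% of tested genes.

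**Figure D2:**
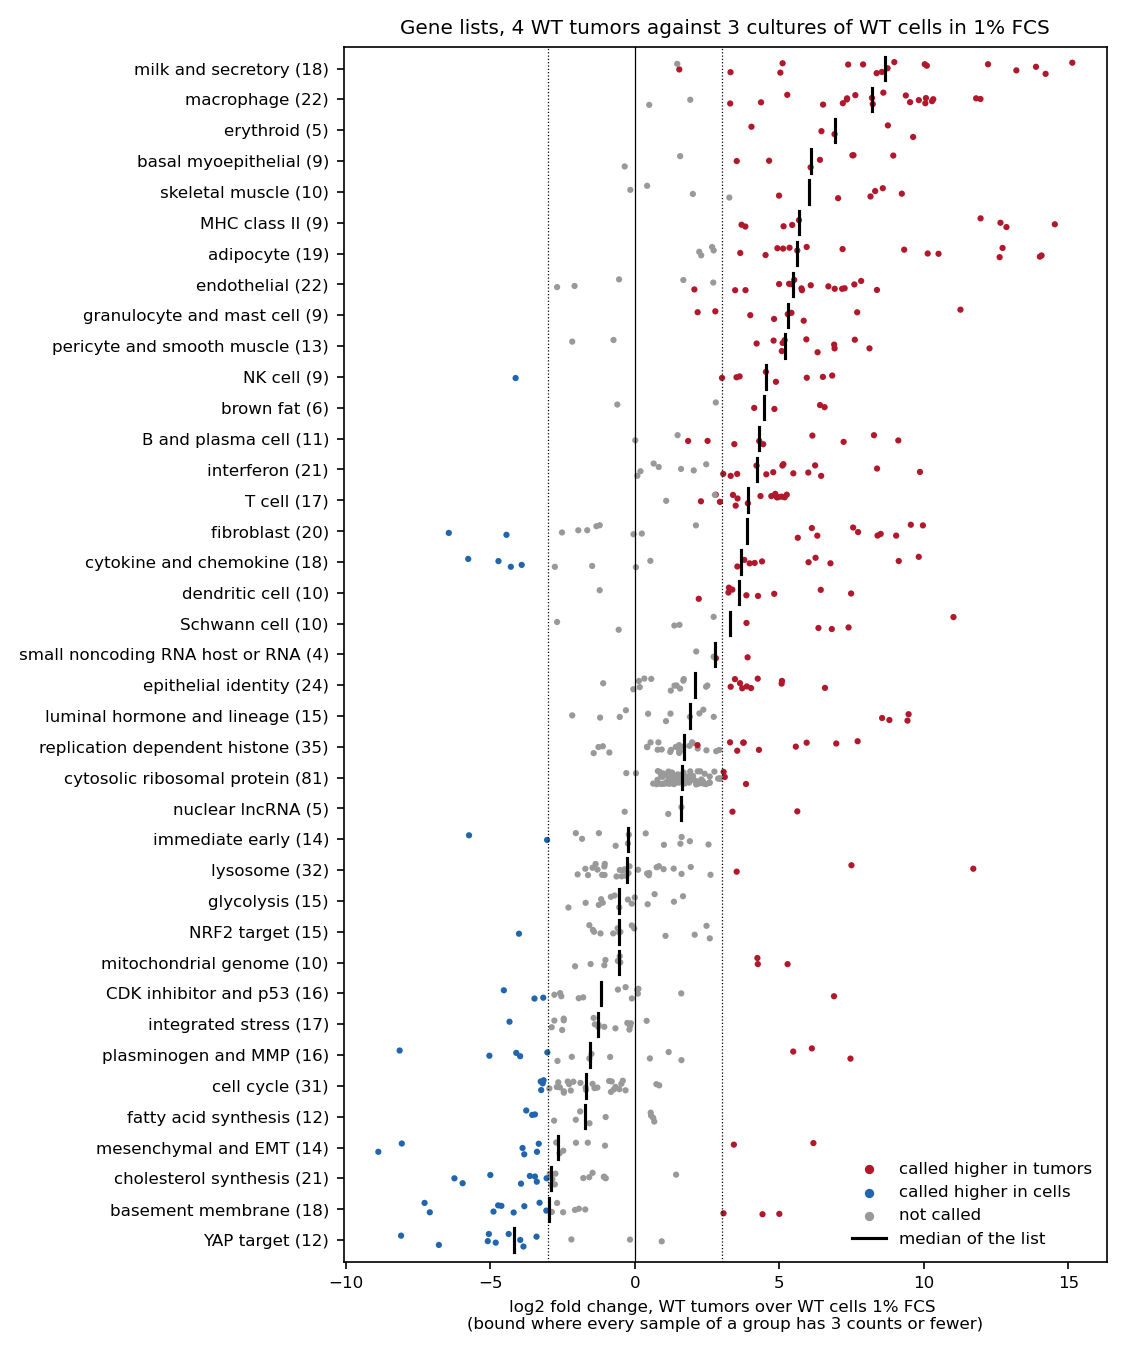
Log2 difference (tumors minus cultures) of each tested member of the gene lists, with the list median. The marker lists of other cell types lie to the right, with medians from 3.30 to 8.22, and the YAP target list to the left with a median of -4.16.

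Macrophage genes had the highest median of the immune lists. All 22 members were tested, 20 rose in the tumors and none in the cultures, with a median of 8.22. The list summed to 1669, 3573, 2215 and 2461 CPM in the tumors and 31.5, 37.00 and 34.4 CPM in the cultures. Lyz2 (lysozyme) is its most abundant member in the tumors by CPM, not per length, and what remains in the cultures is led by Cd14. C1qb (ENSMUSG00000036905, chromosome 4, 136880129 to 136886187), a chain of complement C1q, read 248, 539, 316 and 348 CPM in the tumors and 0 in each culture. All tumors are high, with tumor 2 highest, and the bound is at least 3980.1-fold (edgeR quasi-likelihood, Benjamini-Hochberg adjusted p = 3.49e-06). Its partner C1qa read 69.2, 163, 73.7 and 86.4 CPM in the tumors and 0 in each culture, a bound of at least 1077-fold, and Tyrobp, a signalling adaptor of myeloid cells, read 68.00, 126, 138 and 135 CPM in the tumors and 0 in each culture, a bound of at least 1284-fold. Cd163 and Mertk are the 2 members not called. Of 22 members, 12 have 3 counts or fewer in every culture, among them the defining genes Ptprc, C1qa and C1qb.

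Antigen presentation by MHC class II was all but silent in the cultures. All 9 genes of that list were tested and all 9 rose in the tumors, with sums of 4271, 5704, 3252 and 2778 CPM against 3.24, 1.97 and 2.07 CPM and a median of 5.68. Cd74 (ENSMUSG00000024610, chromosome 18, 60803848 to 60812652), the invariant chain that guides class II molecules and the most abundant member by CPM, read 2557, 3092, 1761 and 1225 CPM in the tumors and 0.0595, 0.0304 and 0 CPM in the cultures. Every tumor is high and the cultures hold 3 counts between them, which gives a ratio of 72035 (interval 24649 to 349302) (edgeR quasi-likelihood, Benjamini-Hochberg adjusted p = 1.71e-06). The class II chains H2-Ab1 and H2-Aa follow. H2-Ab1 read 601, 929.7, 542 and 634 CPM in the tumors and 0.0298, 0 and 0.0262 CPM in the cultures and H2-Aa read 557, 841, 474 and 473 CPM in the tumors and 0 in each culture, the latter a bound of at least 6431-fold. Dendritic cell genes had 9 of 10 called higher in the tumors and none in the cultures (median 3.62), with sums of 36.3, 60.6, 30.2 and 30.8 CPM against 9.76, 10.1 and 11.3 CPM. Their most abundant member in the tumors was the integrin Itgax, at 18.4, 23.4, 14.3 and 9.29 CPM in the tumors and 0, 0.0911 and 0 CPM in the cultures, and Zbtb46, which was not called, leads the culture sum.

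Lymphocyte genes were lower in level, and most of them rose in the tumors. T cell genes had 15 of 17 tested (18 on the list) higher in the tumors and none in the cultures, with a median of 3.91 and sums of 38.3, 37.02, 36.3 and 28.04 CPM against 0.565, 0.972 and 0.9699 CPM. Lck, the kinase of T cell receptors and the most abundant member in both materials, read 8.82, 8.68, 4.74 and 5.02 CPM in the tumors and 0.149, 0.273 and 0.341 CPM in the cultures, 26.4-fold higher in the tumors. Foxp3 was too low to test. B and plasma cell genes had 9 of 11 tested (15 on the list) higher in the tumors and none in the cultures, with a median of 4.30 and sums of 93.7, 112, 134 and 88.9 CPM against 0.387, 0.547 and 0.262 CPM. The most abundant member is Igkc, the kappa light chain, at 45.1, 51.5, 55.4 and 50.3 CPM in the tumors and 0 in each culture. All 4 tumors are alike in it, and the bound is at least 555-fold (edgeR quasi-likelihood, Benjamini-Hochberg adjusted p = 1.71e-06). Ighm, the heavy chain of IgM, read 25.4, 25.4, 50.7 and 11.4 CPM in the tumors and 0 in each culture, and Jchain, which links antibody polymers, read 9.36, 13.5, 15.7 and 16.03 CPM in the tumors and 0 in each culture. The B cell markers Ms4a1, Blk and Pax5 were too low to test. Natural killer genes had 8 of 9 higher in the tumors, with a median of 4.54 and sums of 32.9, 27.6, 32.7 and 36.4 CPM against 6.52, 5.68 and 9.096 CPM. Gzmb, a protease of killer granules, read 13.4, 9.17, 9.27 and 9.59 CPM in the tumors and 0 in each culture, with tumor 1 above the rest, and its bound is at least 114-fold. The exception is Eomes, a T-box factor, picked out after its values were seen, at 6.398, 5.65 and 9.02 CPM in the cultures and 0.383, 0.404, 0.415 and 0.401 CPM in the tumors. All cultures are above all tumors, by 17.4-fold (edgeR quasi-likelihood, Benjamini-Hochberg adjusted p = 1.27e-05).

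Granulocyte and mast cell genes had 9 of 9 tested (13 on the list) higher in the tumors, with a median of 5.29 and sums of 375, 291, 212 and 199 CPM against 0.417, 0.0911 and 0.131 CPM. Ly6g, Camp, Ngp and Ms4a2 were too low to test. Most of the tumor sum is Kit, a receptor tyrosine kinase of mast cells that mammary epithelium also makes, at 354, 256, 169 and 120.1 CPM in the tumors and 0.0298, 0 and 0 CPM in the cultures. The neutrophil protein S100a8 read 12.7, 7.53, 27.7 and 58.2 CPM in the tumors and 0.357, 0 and 0.0262 CPM in the cultures, so the tumors differ among themselves but all lie above the cultures, by 207-fold (edgeR quasi-likelihood, Benjamini-Hochberg adjusted p = 0.000265, log2 7.69, or 10.64 without culture 1). Without tumor 4 the B and plasma cell counts are 8 of 9 and those of granulocytes and mast cells 8 of 8.

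Fat cell genes were among the most abundant of the missing programs. Of 19 adipocyte genes, all tested, 15 rose in the tumors and none in the cultures, with a median of 5.62. Their sums are 2316, 5557, 2108 and 7926 CPM in the tumors and 88.5, 63.3 and 70.5 CPM in the cultures. Tumors 2 and 4 carry more than tumors 1 and 3. The most abundant member in the tumors by CPM was Cfd (ENSMUSG00000061780, chromosome 10, 79890853 to 79892655), the complement protease adipsin, at 563, 2259.7, 298 and 3164 CPM in the tumors and 0, 0 and 0.0262 CPM in the cultures. Cultures 1 and 2 have none of it and culture 3 has 1 count, which gives a ratio of 179816 (interval 32273 to 7102355) (edgeR quasi-likelihood, Benjamini-Hochberg adjusted p = 1.74e-05). Car3, a carbonic anhydrase of fat, read 415, 1131, 131 and 789.7 CPM in the tumors and 0 in each culture and Cidec, a lipid droplet protein, read 60.3, 169.6, 30.3 and 271 CPM in the tumors and 0 in each culture. Their bounds are at least 6763-fold and at least 1456-fold. Pparg, Lipe, Pnpla2 and Dgat2, which many cells use for lipid handling, were not called, and Pnpla2 leads the culture sum. Brown fat genes had 4 of 6 tested (8 on the list) higher in the tumors and none in the cultures, with a median of 4.48 and sums of 19.6, 31.8, 36.1 and 45.9 CPM against 8.45, 5.04 and 3.98 CPM. Ucp1, the uncoupling protein that defines brown fat, was too low to test.

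Vessel genes split by member. Of 22 endothelial genes, all tested, 17 rose in the tumors and none in the cultures, with a median of 5.46 and sums of 243, 293, 146 and 180.2 CPM against 119, 61.8 and 46.01 CPM. Without culture 3, 1 member is called higher in the cultures beside the 17. The culture sum is led by Flt1, a receptor for vascular endothelial growth factor, and Kdr, Flt1, Tek, Prox1 and Flt4 were not called. Esam, a junction protein of endothelium and the most abundant member in the tumors, read 34.8, 37.2, 18.9 and 30.5 CPM in the tumors and 0.0595, 0.0304 and 0.0524 CPM in the cultures, which is a ratio of 639 (interval 274 to 1968). Ecscr, another endothelial surface protein, read 14.8, 14.02, 14.97 and 26.7 CPM in the tumors and 0, 0 and 0.0262 CPM in the cultures with tumor 4 highest, and Emcn, a mucin-like protein of capillaries, read 12.9, 13.7, 10.01 and 16.00 CPM in the tumors and 0, 0 and 0.0262 CPM in the cultures. Pericyte and smooth muscle genes had 11 of 13 tested (14 on the list) higher in the tumors and none in the cultures, with a median of 5.18 and sums of 1242, 1396, 1218 and 762 CPM against 227, 253 and 285 CPM. Myh11, the smooth muscle myosin, read 69.7, 93.6, 40.5 and 13.1 CPM in the tumors and 0.298, 0.182 and 0.105 CPM in the cultures. All tumors lie above all cultures, by 278-fold (edgeR quasi-likelihood, Benjamini-Hochberg adjusted p = 3.01e-05). Kcnj8, a potassium channel of pericytes, read 14.5, 12.3, 23.7 and 20.8 CPM in the tumors and 0.0595, 0.0304 and 0 CPM in the cultures, and calponin (Cnn1) read 78.6, 142, 104 and 56.9 CPM in the tumors and 0.357, 1.09 and 0.944 CPM in the cultures, 119-fold higher in the tumors. Acta2 leads the tumor sum, and myoepithelial cells also make Acta2, Myh11 and Cnn1.

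Red cell genes had 5 of 5 tested (7 on the list) higher in the tumors, with a median of 6.91 and sums of 75.9, 115, 126 and 230.1 CPM against 0.298, 0.425 and 0.419 CPM. Hbb-bs, an adult beta globin, read 18.8, 53.9, 71.9 and 144 CPM in the tumors and 0 in each culture, and Hba-a1, an alpha globin, read 45.6, 36.8, 27.2 and 48.1 CPM in the tumors and 0 in each culture. These globins have near-identical copies, so reads that match more than 1 copy are lost and their levels are uncertain. Schwann cell genes had 5 of 10 higher in the tumors and none in the cultures, with a median of 3.30 and sums of 378, 326, 414 and 200.4 CPM against 55.02, 54.9 and 62.4 CPM. The list's most abundant tumor gene, Sox10, a transcription factor of Schwann cells and also of mammary epithelium, read 196, 231, 220.3 and 112 CPM in the tumors and 0, 0 and 0.0524 CPM in the cultures. All tumors are high, and culture 3 alone has any, a ratio of 10872 (interval 3009.7 to 89773) (edgeR quasi-likelihood, Benjamini-Hochberg adjusted p = 1.71e-06). The cadherin Cdh19 read 15.5, 17.7, 22.3 and 24.5 CPM in the tumors and 0.327, 0.0304 and 0 CPM in the cultures. The glial filament gene Gfap read 72.96, 6.78, 44.1 and 2.62 CPM in the tumors and 0.446, 0.182 and 0.2097 CPM in the cultures, with tumors 1 and 3 well above tumors 2 and 4 but all above the cultures. The myelin genes Mbp, Prx, Mal and Ncmap were not called.

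The calls of skeletal muscle genes depend on single libraries. With all samples 6 of 10 tested genes (14 on the list) were called higher in the tumors and none in the cultures, with a median of 6.01. The sums are 41.9, 35.8, 60.3 and 1337 CPM in the tumors and 11.2, 10.4 and 10.5 CPM in the cultures. By mean the most abundant tumor gene is the muscle actin Acta1, a rank that rests on tumor 4. In tumors 1 to 3 Mb leads the list, with 34.6, 27.9 and 38.7 CPM of these sums. Without tumor 4, 2 of 8 tested genes are called and the median is 0.52. It is 1.57 with the replicate block and also lower with limma-voom. The counts are also lower, 3 of 11 without culture 1, 2 of 11 without culture 2 and 2 of 11 without culture 3. Myl1, a light chain of fast muscle myosin, read 0.581, 2.14, 2.86 and 215 CPM in the tumors and 0 in each culture. Tumor 4 holds nearly all of it. The log2 difference is 14.41 with an adjusted p of 0.015 and 9.57 with an adjusted p of 0.000744 without tumor 4 (edgeR quasi-likelihood test, Benjamini-Hochberg), and both are fitted against 0 in every culture, where the bound on the mean is at least 604-fold. That bound rests on tumor 4 and is far lower without it. Mb (myoglobin), by contrast, is even across the tumors at 34.6, 27.9, 38.7 and 37.1 CPM in the tumors and 0.0595, 0.213 and 0.0524 CPM in the cultures, 319-fold higher (edgeR quasi-likelihood, Benjamini-Hochberg adjusted p = 2.46e-06).

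The program of the secretory mammary cell was missing too, although the cells are mammary. Of 18 milk and secretory genes, all tested, 17 rose in the tumors and none in the cultures, with a median of 8.65, the highest of the lists. The sums are 31859.6, 36644, 42045 and 57832 CPM in the tumors and 139.7, 63.8 and 68.5 CPM in the cultures. Kappa casein (Csn3, ENSMUSG00000001622, chromosome 5, 87925579 to 87932665), picked out after its values were seen as the most abundant, takes between 1.499% and 1.92% of all tumor counts. It read 13246, 16080.1, 17573 and 22552 CPM in the tumors and 0.684, 2.34 and 2.49 CPM in the cultures. Every tumor is far above every culture, by 9419-fold (edgeR quasi-likelihood, Benjamini-Hochberg adjusted p = 3.57e-06). Lalba, alpha-lactalbumin of the lactose synthase, read 630.4, 852, 2453 and 2988 CPM in the tumors and 0 in each culture, a bound of at least 18989.8-fold, with tumors 3 and 4 above tumors 1 and 2. Lactoferrin (Ltf) read 977, 3372, 429 and 719 CPM in the tumors and 0, 0 and 0.0524 CPM in the cultures, with tumor 2 highest. Pigr, the receptor that carries IgA into milk, read 133, 76.5, 107 and 65.5 CPM in the tumors and 0 in each culture, a bound of at least 1047-fold (edgeR quasi-likelihood, Benjamini-Hochberg adjusted p = 4.03e-06). Xdh, which coats milk fat globules but has other uses, was not called and leads the culture sum. Without tumor 4, 16 of 17 tested members are called.

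**Figure D3:**
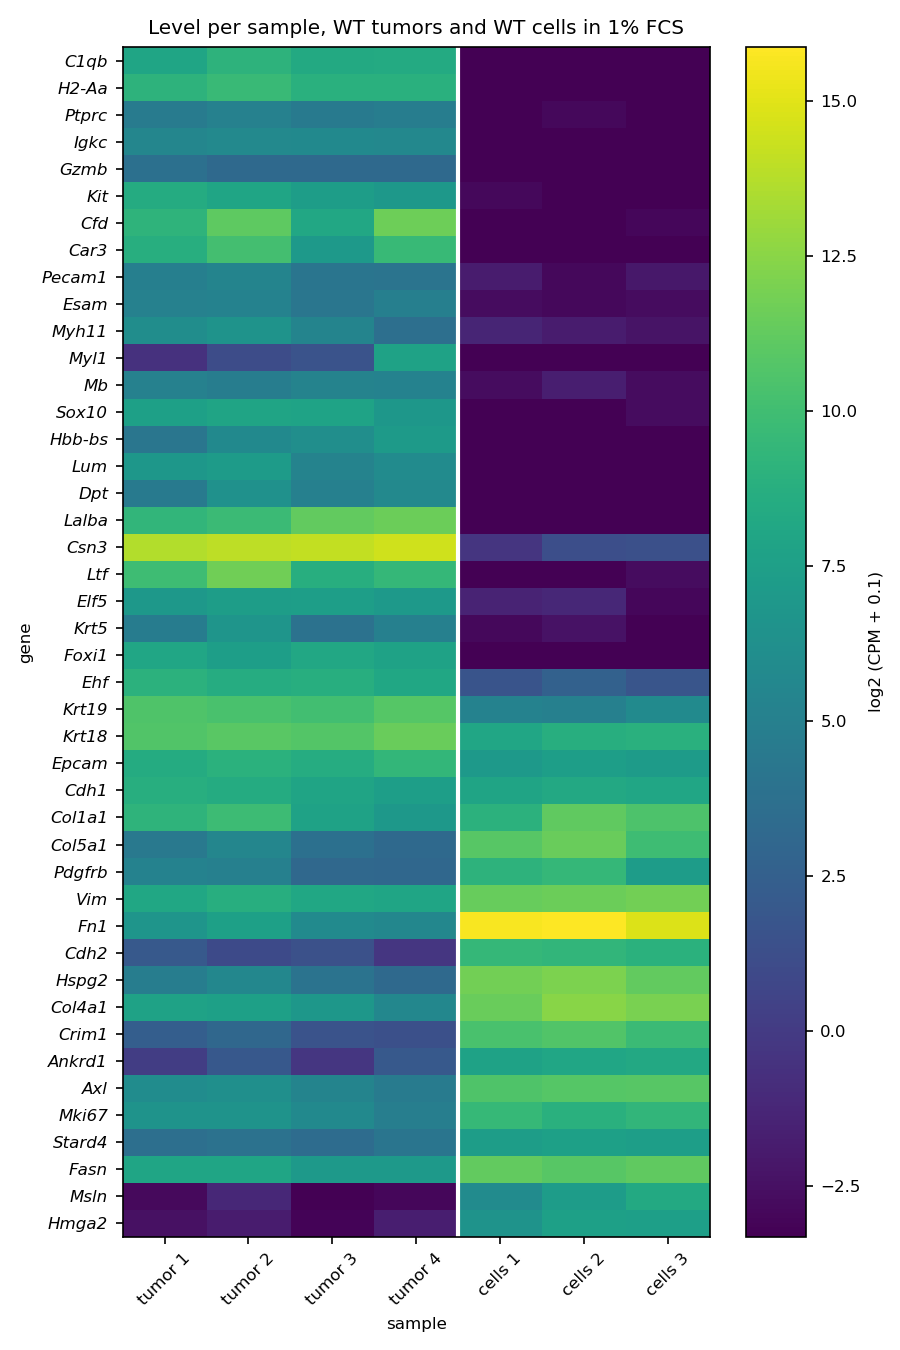
Heat map of log2 (CPM + 0.1) of selected genes in the 4 tumors and 3 cultures, with brighter colors for higher levels. C1qb, H2-Aa and Foxi1 are bright in all 4 tumors and dark (0 CPM) in the 3 cultures, and Fn1, Cdh2 and Crim1 are brighter in the cultures.

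Luminal lineage genes differed in part. Of 15 tested (16 on the list) 4 rose in the tumors and none in the cultures, with a median of 1.91 and sums of 1681, 1494, 1289 and 1522 CPM against 419, 351 and 272 CPM, led in both by Xbp1, a factor of secretory cells. The 4 are Elf5, Prlr, Cited1 and Spdef. Elf5 (ENSMUSG00000027186, chromosome 2, 103411688 to 103450989), the factor that directs alveolar cells, read 119, 162, 171 and 135 CPM in the tumors and 0.268, 0.334 and 0.0262 CPM in the cultures, 711-fold higher in the tumors (edgeR quasi-likelihood, Benjamini-Hochberg adjusted p = 3.34e-06). Prlr, the prolactin receptor, read 198, 118, 129 and 152 CPM in the tumors and 0.536, 0.0911 and 0.0262 CPM in the cultures, 692-fold higher (log2 9.43, or 11.28 without culture 1). All tumors are above 100 CPM and all cultures below 1 CPM in both. Cited1, a coregulator of estrogen response, read 78.2, 11.97, 20.4 and 52.9 CPM in the tumors and 0, 0.0608 and 0.0786 CPM in the cultures and Spdef, a factor of secretory cells, read 34.5, 28.03, 36.7 and 38.1 CPM in the tumors and 0.0298, 0.0911 and 0 CPM in the cultures. The receptors Esr1 and Pgr and the factors Gata3 and Foxa1 were not called. Basal and myoepithelial genes had 7 of 9 higher in the tumors and none in the cultures, with a median of 6.08 and sums of 258, 486, 186 and 224 CPM against 65.2, 83.9 and 47.3 CPM. The basal keratin Krt5 read 26.99, 105, 15.02 and 32.6 CPM in the tumors and 0.0298, 0.0911 and 0 CPM in the cultures, with tumor 2 highest. Krt17, a keratin of basal and injured epithelium, read 43.9, 87.4, 27.8 and 50.1 CPM in the tumors and 0.298, 0.516 and 0.0262 CPM in the cultures, and the oxytocin receptor Oxtr, which makes myoepithelium contract, read 25.9, 38.8, 15.6 and 11.8 CPM in the tumors and 0.774, 0.0608 and 0.184 CPM in the cultures. Krt14, most abundant in both, was not called.

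General epithelial identity was kept in part in these cultures. Of 24 genes, all tested, 10 rose in the tumors and none in the cultures, with a median of 2.08 and sums of 8597, 8999, 7654 and 11169 CPM against 1555, 2368 and 2996 CPM. Krt8 read 1053, 1520.1, 1063 and 1712 CPM in the tumors and 215, 491 and 768 CPM in the cultures, and Krt18 read 1638, 2038, 1730.1 and 2936 CPM in the tumors and 259, 409 and 465 CPM in the cultures, and neither passes 8-fold. The 10 include regulators. Ehf (ENSMUSG00000012350, chromosome 2, 103263433 to 103303278), an ETS factor of epithelia, read 506, 377, 411 and 272 CPM in the tumors and 3.07, 6.05 and 3.17 CPM in the cultures, 95.7-fold higher in the tumors (edgeR quasi-likelihood, Benjamini-Hochberg adjusted p = 3.96e-06). Elf3, a related factor, read 84.1, 59.8, 58.01 and 46.2 CPM in the tumors and 1.34, 1.37 and 2.73 CPM in the cultures, 34.1-fold higher. Krt19 read 1581, 1337, 1058 and 1843 CPM in the tumors and 37.3, 33.4 and 58.4 CPM in the cultures, 33.8-fold higher, with every culture far below every tumor. The junction genes Cldn3, Cldn7 and Marveld3 rose with them, while Cldn4, Ocln, Dsp and the splicing factors Esrp1 and Esrp2 were not called. Scaled over all 20 samples, the list sum averaged 2335 CPM in these cultures. It averaged 9293 CPM in the wild type tumors and 7981 CPM in the Ctsd-deficient ones. The sum was 18162 CPM in the Ctsd-deficient cells kept equally long. In the cells kept longer it was 11145 CPM for wild type and 13289 CPM for Ctsd-deficient. The lower sum is thus a feature of these cultures, since every other cell group lies above the tumors.

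The opposite pattern led with fibronectin. Fn1 (ENSMUSG00000026193, chromosome 1, 71585520 to 71653200), a matrix glycoprotein that cells bind through integrins, took 5.13%, 5.53% and 3.12% of all counts of the 3 cultures. It read 52686, 60189 and 30293 CPM in the cultures and 106, 194, 59.5 and 47.5 CPM in the tumors. Each culture is far above each tumor, by 469-fold (edgeR quasi-likelihood, Benjamini-Hochberg adjusted p = 1.29e-05). N-cadherin (Cdh2), which replaces E-cadherin in cells that turn mesenchymal, read 723, 637 and 503 CPM in the cultures and 3.997, 1.93, 2.57 and 0.731 CPM in the tumors, 267-fold higher in the cultures (edgeR quasi-likelihood, Benjamini-Hochberg adjusted p = 5.46e-06). Vimentin (Vim), the filament of mesenchymal cells, read 2729, 2953 and 3487 CPM in the cultures and 282, 418, 278 and 244 CPM in the tumors, 10.01-fold higher. Of 14 mesenchymal genes, all tested, 6 rose in the cultures (Vim, Fn1, Cdh2, Zeb1, Twist2 and S100a4) and 2 in the tumors (Cdh11 and Tgfbi), with a median of -2.66 and sums of 59509, 69558 and 37695 CPM in the cultures against 2983, 3409, 1620.2 and 1741 CPM. Tgfbi, a matrix protein induced by TGF-beta, read 61.9, 86.4, 46.1 and 38.8 CPM in the tumors and 0.0893, 1.12 and 1.18 CPM in the cultures. Zeb2, Snai1, Snai2, Twist1, Prrx1 and Sparc were not called, and Sparc is the most abundant of the list in the tumors.

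Basement membrane genes rose in the cultures in 9 of 18 cases and in the tumors in 3 (Lama1, Lama4 and Col17a1), with a median of -2.97. The sums are 12644, 20293 and 13461 CPM in the cultures and 986, 1004, 587 and 295 CPM in the tumors. Without tumor 4 the counts are 7 and 3. Col4a1 (ENSMUSG00000031502, chromosome 8, 11198423 to 11312826), a chain of the collagen IV network and the most abundant in both, read 2909, 5653 and 4091 CPM in the cultures and 217, 191, 115 and 46.9 CPM in the tumors, 29.6-fold higher in the cultures (edgeR quasi-likelihood, Benjamini-Hochberg adjusted p = 5.52e-05). Col4a2, its partner and neighbour on chromosome 8, read 1549, 2677 and 2032 CPM in the cultures and 117, 111, 66.2 and 20.8 CPM in the tumors. Hspg2 (perlecan), a heparan sulfate proteoglycan, read 3497, 4466 and 2401 CPM in the cultures and 28.3, 47.5, 15.9 and 9.403 CPM in the tumors, 136-fold higher. Col7a1, of the anchoring fibrils under epithelia, read 455, 2475 and 1173 CPM in the cultures and 8.56, 15.8, 6.96 and 4.01 CPM in the tumors, 155-fold higher (edgeR quasi-likelihood, Benjamini-Hochberg adjusted p = 2.57e-05). The groups overlap in none of these 4, and tumor 4 is the lowest tumor in each.

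Fibroblast genes were called mostly in the tumors. Of 20 genes, all tested, 10 rose in the tumors (Col1a2, Dcn, Lum, Fap, Thy1, Col6a3, Dpt, Mmp2, Pi16 and Mfap5) and 2 in the cultures (Pdgfrb and Col5a1), the latter near the 6.55% of all tested genes, with a median of 3.88. Lum (lumican), a proteoglycan of collagen fibrils, read 117, 148, 38.4 and 61.4 CPM in the tumors and 0 in each culture, a bound of at least 1001-fold (edgeR quasi-likelihood, Benjamini-Hochberg adjusted p = 2.04e-05). Dpt, a dermal matrix protein, read 23.5, 85.2, 32.2 and 51.4 CPM in the tumors and 0 in each culture, and Thy1, a surface protein of fibroblasts and T cells, read 20.6, 25.9, 7.74 and 14.4 CPM in the tumors and 0.0298, 0 and 0 CPM in the cultures. These are at or near 0 in each culture. Col5a1, a collagen that starts fibrils and was picked out after its values were seen, read 1923, 2831 and 964 CPM in the cultures and 21.1, 44.2, 13.4 and 9.403 CPM in the tumors, 86.5-fold higher in the cultures (edgeR quasi-likelihood, Benjamini-Hochberg adjusted p = 2.92e-05). Pdgfrb, the PDGF receptor of pericytes and fibroblasts, also picked out afterwards, read 548, 690.3 and 160.1 CPM in the cultures and 36.4, 32.3, 8.81 and 8.39 CPM in the tumors, 21.7-fold higher. Col1a1 read 527, 2309 and 1463 CPM in the cultures and 568, 923, 218 and 122 CPM in the tumors. It overlaps and was not called, while Col1a2, which forms type I collagen with it, is among the genes higher in the tumors and leads the tumor sum. The list sums are 3003, 4839, 1366 and 1598 CPM in the tumors and 4949.6, 7565 and 2987 CPM in the cultures, so the sums overlap. Scaled over all 20 samples, the list sum averaged 5222 CPM in these cultures and 21.7 CPM in the wild type cells kept 12 weeks.

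Genes known as targets of YAP had the largest share called higher in the cultures of any list. Of 12, all tested, 9 rose in the cultures and none in the tumors, with a median of -4.16 and sums of 6237, 7231 and 5685 CPM in the cultures against 441, 416, 372 and 242 CPM in the tumors. Crim1 (ENSMUSG00000024074, chromosome 17, 78200248 to 78376592), a membrane protein that binds growth factors, read 1339, 1627 and 862 CPM in the cultures and 5.16, 8.28, 2.84 and 2.45 CPM in the tumors, 272-fold higher (edgeR quasi-likelihood, Benjamini-Hochberg adjusted p = 5.12e-06). Ankrd1, a muscle ankyrin repeat protein much used as a YAP readout, read 214, 264 and 309 CPM in the cultures and 1.01, 3.86, 0.734 and 4.01 CPM in the tumors, 109.8-fold higher (edgeR quasi-likelihood, Benjamini-Hochberg adjusted p = 2.28e-05). The receptor tyrosine kinase Axl, the most abundant member in the cultures by CPM, read 1526, 1813 and 1853 CPM in the cultures and 62.97, 74.8, 40.1 and 25.7 CPM in the tumors, 34.00-fold higher. Every culture is above every tumor in each of these. Ccn1 and Ccn2, secreted matrix proteins named here after their values were seen, read 1296, 1169.9 and 953 CPM in the cultures and 78.6, 90.5, 77.4 and 45.8 CPM in the tumors and 463, 1321 and 646 CPM in the cultures and 36.1, 59.4, 43.3 and 18.7 CPM in the tumors respectively. F3, Nt5e and Tgfb2 were not called, and F3 leads the tumor sum.

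The lists of YAP targets and of cholesterol genes, and no others, were searched for a binding core known for their factor. The choice was made after the values were seen, and promoters with matches are shown for the list where most genes have 1. RefSeq promoters of GRCm38.p6 (300 bases around the start) were found for 11 of the 12 genes. The gene without one is Ccn2, which was called higher in the cultures. GGAATG, the core that TEAD factors, the DNA-binding partners of YAP, are known to bind, was chosen after the values were seen and searched on both strands, so also as CATTCC. It is in at least 1 promoter of 8 of the 11 genes, against 16.6% of all 27025 genes with a promoter (4481). By promoter it is in 8 of 12, against 14.7% of all 32851 (4817), and the 12th is a further promoter of Lats2 without it. The 8 are Ptpn14, Ccn1, Axl, Amotl2, Ajuba, Lats2, Crim1 and Ankrd1, all called higher in the cultures, and the 3 without it (Tgfb2, F3 and Nt5e) were not called. The list is made of genes already known as YAP targets, and list and core were chosen after the calls were seen. Neither the share with the core nor its split by call is therefore a test of YAP. A match is a description of letters, not a site or a cause. The promoters of Ankrd1 (chr19:36119795-36120094, minus strand), Ccn1 (chr3:145649936-145650235, minus strand) and Crim1 (chr17:78199998-78200297, plus strand) follow, with the matches in capitals.
Ankrd1: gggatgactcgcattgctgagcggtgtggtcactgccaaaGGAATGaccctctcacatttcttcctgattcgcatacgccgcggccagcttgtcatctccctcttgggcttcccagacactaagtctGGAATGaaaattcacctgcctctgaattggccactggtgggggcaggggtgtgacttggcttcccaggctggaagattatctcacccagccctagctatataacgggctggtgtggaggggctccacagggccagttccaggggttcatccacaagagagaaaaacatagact
Ccn1: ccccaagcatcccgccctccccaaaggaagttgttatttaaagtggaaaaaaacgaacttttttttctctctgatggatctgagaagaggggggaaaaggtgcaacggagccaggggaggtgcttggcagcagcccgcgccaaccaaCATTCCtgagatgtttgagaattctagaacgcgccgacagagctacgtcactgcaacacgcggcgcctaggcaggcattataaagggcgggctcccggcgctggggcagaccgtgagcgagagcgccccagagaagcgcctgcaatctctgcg
Crim1: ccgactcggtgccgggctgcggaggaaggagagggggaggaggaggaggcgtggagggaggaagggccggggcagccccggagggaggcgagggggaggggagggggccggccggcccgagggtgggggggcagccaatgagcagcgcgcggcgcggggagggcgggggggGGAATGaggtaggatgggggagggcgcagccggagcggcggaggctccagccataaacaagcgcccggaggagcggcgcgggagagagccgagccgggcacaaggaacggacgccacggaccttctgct

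Genes of plasminogen activation and matrix proteolysis leaned to the cultures. Of 16, all tested, 5 rose in the cultures (among them Mmp14, Timp2, Timp3 and Plau) and 3 in the tumors (Mmp2, Mmp3 and Mmp13), no more than the 18.8% of all tested genes, with a median of -1.53 and sums of 8474, 7663 and 4580.0 CPM in the cultures against 822, 887, 507 and 381 CPM in the tumors. Without tumor 4 the counts are 4 and 3. Mmp2, a gelatinase of stromal cells, read 153, 176, 74.4 and 20.4 CPM in the tumors and 1.01, 2.096 and 1.44 CPM in the cultures, 69.8-fold higher in the tumors, and Mmp3 (stromelysin) read 30.1, 110.5, 21.5 and 59.8 CPM in the tumors and 0.595, 0.334 and 0.0262 CPM in the cultures, 176-fold higher.

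Proliferation genes leaned to the cultures but mostly below 8-fold. Of 31 cell cycle genes, all tested, 4 were called higher in the cultures (Mki67, Top2a, Cenpf and E2f1) and none in the tumors, with a median of -1.70, and 29 of 31 have a negative difference. The sums are 5744, 3722 and 5759 CPM in the cultures and 1736, 1619, 1264 and 1394 CPM in the tumors, without overlap. Top2a, a topoisomerase of dividing cells, read 1110.1, 591 and 934 CPM in the cultures and 137, 108, 61.1 and 62.5 CPM in the tumors, 9.55-fold higher (edgeR quasi-likelihood, Benjamini-Hochberg adjusted p = 6.10e-05). E2f1, a factor of S phase entry, read 60.6, 50.04 and 70.9 CPM in the cultures and 8.29, 6.48, 5.76 and 5.09 CPM in the tumors, 9.44-fold higher. Mki67, the Ki-67 antigen, read 732, 474 and 627 CPM in the cultures and 94.4, 94.04, 56.4 and 29.4 CPM in the tumors, with a log2 difference of -3.16 ± 0.41, just under the threshold at -2.998 without tumor 3 and at -2.88 without tumor 4, so no longer called in either case. In each of these cases 2 of the 31 genes are called. With the length trend taken out, an alternative added after seeing the data, Mki67 is at -2.18 and Top2a at -2.36, below 8-fold.

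Among CDK inhibitors and p53 targets, all 16 tested, 3 rose in the cultures (Zmat3, Eda2r and Phlda3) and 1 in the tumors, with a median of -1.18 (-2.10 with the length trend taken out) and sums of 2305, 1669.9 and 2536 CPM in the cultures against 959.7, 755, 857 and 965 CPM in the tumors. Eda2r, a receptor of the TNF family, read 111, 62.8 and 93.1 CPM in the cultures and 2.86, 4.09, 3.38 and 5.09 CPM in the tumors, 23.1-fold higher in the cultures (edgeR quasi-likelihood, Benjamini-Hochberg adjusted p = 3.98e-06). Zmat3, an RNA-binding p53 target, read 220.5, 188 and 232 CPM in the cultures and 28.5, 21.04, 17.01 and 10.3 CPM in the tumors, 11.1-fold higher, but -2.38 on the log2 scale with the length trend taken out. Cdkn2b (p15), a CDK inhibitor, is the gene higher in the tumors, at 7.33, 8.83, 11.2 and 15.98 CPM in the tumors and 0 in each culture, a bound of at least 119-fold (edgeR quasi-likelihood, Benjamini-Hochberg adjusted p = 1.63e-05). Cdkn1a, Cdkn1b, Cdkn2a and Mdm2 were not called.

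Genes of the cholesterol list rose in the cultures in 8 of 21 cases, all tested, and in the tumors in none, with a median of -2.90, and 20 of 21 have a negative difference. The sums are 5708, 4895 and 4169 CPM in the cultures and 825, 615, 624 and 805 CPM in the tumors. Those higher in the cultures include Hmgcs1, Cyp51, Hsd17b7 and Stard4. Stard4 (ENSMUSG00000024378, chromosome 18, 33199355 to 33213862), a carrier of cholesterol inside the cell that was picked out after its values were seen, read 161, 191 and 175 CPM in the cultures and 12.7, 15.2, 11.04 and 17.7 CPM in the tumors, 12.4-fold higher (edgeR quasi-likelihood, Benjamini-Hochberg adjusted p = 3.78e-06). Without tumor 4, 10 genes of the list are called. The letters CACCCCAC, an SREBP binding core searched on both strands (also as GTGGGGTG), are in a promoter of 1 of 13 genes of the list and of 3.30% of all genes, or in 1 of 16 promoters and 2.87% of all. Fatty acid synthesis had 3 of 12 higher in the cultures and none in the tumors, with a median of -1.73 and sums of 9892, 7889 and 8774 CPM in the cultures against 2866, 2923, 2830.0 and 2022 CPM in the tumors. Scd2, a desaturase, read 3789, 3147 and 3411 CPM in the cultures and 367, 247, 283 and 125 CPM in the tumors, 13.5-fold higher. Fasn, the fatty acid synthase, read 2416, 1935 and 2364 CPM in the cultures and 244, 256, 136 and 129.7 CPM in the tumors, 11.7-fold higher, though -2.50 on the log2 scale with the length trend taken out. Fads2, a desaturase of polyunsaturated fatty acids, read 332, 271 and 329 CPM in the cultures and 33.4, 32.4, 33.5 and 13.9 CPM in the tumors, with tumor 4 lowest.

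Interferon genes leaned to the tumors. Of 21, all tested, 14 rose in the tumors and none in the cultures, with a median of 4.21 and sums of 2302, 1904, 2190.4 and 4155 CPM against 527, 403 and 360.1 CPM, led in both by B2m, which was not called. Without tumor 4, which is highest, 12 are called. Oas1a, a sensor of double-stranded RNA, read 54.5, 51.1, 61.3 and 173 CPM in the tumors and 0.0298, 0 and 0 CPM in the cultures, a ratio of 8574 (interval 1539 to 338665) (edgeR quasi-likelihood, Benjamini-Hochberg adjusted p = 6.16e-06). Ifi27l2a, an interferon-induced mitochondrial protein, read 24.2, 99.3, 73.02 and 405 CPM in the tumors and 1.13, 0.182 and 0.0524 CPM in the cultures, and Ifi44 read 34.9, 27.1, 50.4 and 105 CPM in the tumors and 0.595, 0.881 and 0.393 CPM in the cultures. All tumors lie above all cultures in the 3 genes.

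Cytokines and chemokines changed hands by member. Of 18 tested (20 on the list) 10 rose in the tumors (Cxcl1, Cxcl2, Cxcl5, Cxcl14, Cxcl15, Ccl2, Ccl5, Ccl7, Ccl8 and Il33) and 4 in the cultures (Cxcl12, Lif, Csf1 and Vegfa), with a median of 3.67 (1.98 with the length trend taken out), and without tumor 4 the counts are 9 and 4. The sums are 2252, 1926 and 1300.0 CPM in the cultures and 248, 478, 287 and 505 CPM in the tumors. Ccl8, a monocyte attractant, read 30.8, 147, 67.4 and 85.4 CPM in the tumors and 0 in each culture, a bound of at least 907-fold. Ccl7 read 13.8, 32.6, 31.2 and 120.0 CPM in the tumors and 0.0298, 0.0911 and 0.131 CPM in the cultures and Il33, an alarm cytokine, read 31.02, 59.5, 31.3 and 49.1 CPM in the tumors and 0.982, 0.122 and 0.0786 CPM in the cultures. The 4 genes of the cultures were picked out after their values were seen. Vegfa (ENSMUSG00000023951, chromosome 17, 46016993 to 46032369), the vessel growth factor, read 128, 518 and 204 CPM in the cultures and 4.28, 4.68, 6.35 and 5.54 CPM in the tumors, 54.3-fold higher in the cultures (edgeR quasi-likelihood, Benjamini-Hochberg adjusted p = 1.21e-05). Csf1, which macrophages need to survive, read 931, 646 and 526 CPM in the cultures and 27.1, 42.05, 25.3 and 12.1 CPM in the tumors, 26.3-fold higher. Lif, a cytokine of the IL-6 family, read 89.1, 126 and 218 CPM in the cultures and 8.26, 7.497, 5.14 and 8.65 CPM in the tumors, 19.5-fold higher, and Cxcl12, a chemokine of stromal cells, read 1092, 627 and 338 CPM in the cultures and 51.8, 66.6, 36.9 and 26.6 CPM in the tumors, 15.1-fold higher.

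Several processes differed little at this threshold. Glycolysis had 0 of 15 genes called in either direction (median -0.54, or -0.23 with the length trend taken out), with sums of 10675, 11455, 8349 and 11234 CPM in the tumors and 9109, 8611 and 9416 CPM in the cultures. NRF2 targets had 1 of 15 higher in the cultures and none in the tumors (median -0.54), with sums of 2009, 2013, 1672 and 2033 CPM and 1605, 1770.5 and 1778 CPM. The 1 is Slc7a11, the cystine importer, at 3.78, 9.11 and 20.4 CPM in the cultures and 0.865, 0.344, 0.7501 and 0.801 CPM in the tumors, 16.1-fold higher, and -2.78 on the log2 scale with the length trend taken out. Its log2 difference lies between -4.44 and -3.25 when 1 sample is left out. Genes of the integrated stress response had 1 of 17 higher in the cultures and none in the tumors (median -1.26), with sums of 1964, 2464 and 2962 CPM in the cultures against 1048, 1045, 899 and 958 CPM. That 1 is Slc7a1, the importer of arginine and lysine, at 232, 316 and 265 CPM in the cultures and 14.7, 15.8, 15.1 and 8.08 CPM in the tumors, 20.2-fold higher (edgeR quasi-likelihood, Benjamini-Hochberg adjusted p = 4.50e-06), and 2 genes are called without tumor 4 or without culture 1. Immediate early genes had 2 of 14 higher in the cultures and none in the tumors (median -0.22, or -1.28 with the length trend taken out), with sums of 749, 774 and 746 CPM in the cultures against 809, 654, 509 and 606 CPM. Egr3, a zinc finger factor, read 9.23, 26.3 and 5.82 CPM in the cultures and 0.439, 0.374, 0.112 and 0.0707 CPM in the tumors, 53.3-fold higher, and Junb, a partner in AP-1, read 148, 201 and 155 CPM in the cultures and 16.00, 21.9, 19.9 and 24.1 CPM in the tumors, 8.198-fold higher. Junb is at -2.86 without culture 2, -2.85 without tumor 1 and -2.94 without tumor 3, no longer called, which leaves 1 of 14.

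Of 32 lysosomal genes, all tested, 3 rose in the tumors and none in the cultures (median -0.26), with sums of 9435, 11321, 9044 and 10320.3 CPM in the tumors and 12212, 10097 and 6758 CPM in the cultures, which overlap, and Ctsd is most abundant in both by CPM. The 3 are proteases. Cathepsin S (Ctss, ENSMUSG00000038642, chromosome 3, 95526786 to 95556403), of antigen-presenting cells, read 227, 398, 299 and 299 CPM in the tumors and 0, 0.0304 and 0 CPM in the cultures, a ratio of 30174 (interval 5416 to 1191815) (edgeR quasi-likelihood, Benjamini-Hochberg adjusted p = 1.07e-06). Cathepsin K (Ctsk), a collagen-cleaving enzyme, read 43.4, 90.8, 22.3 and 49.4 CPM in the tumors and 0.238, 0.152 and 0.446 CPM in the cultures, 180.5-fold higher. Cathepsin H (Ctsh), an aminopeptidase, read 474, 589, 843 and 1158 CPM in the tumors and 102, 60.3 and 37.4 CPM in the cultures, 11.5-fold higher. All tumors lie above all cultures in the 3, and the cultures differ in Ctsh.

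The 6 lists kept for library preparation and for the sex check had 20 of 136 tested genes (182 members) called higher in the tumors and none in the cultures, the former a smaller share than the 18.8% of all tested genes. Cytosolic ribosomal protein genes, which are short, had 3 of 81 tested (83 on the list) called higher in the tumors and none in the cultures, yet 80 of 81 differences are positive, with a median of 1.64 (0.52 with the length trend taken out) and sums of 59475, 68066, 110055 and 148905 CPM against 20806, 29505 and 34837 CPM. Their median exon length is 1781 bases. The 3 are Rpl35, Rpl39l and Rps14. The count depends on single libraries, at 1 without tumor 4 or without culture 1, 5 without culture 2, 6 without culture 3 or without tumor 2, and 7 without tumor 1. Rps14 read 1961, 2058, 4104 and 5559 CPM in the tumors and 273, 443 and 470.5 CPM in the cultures, with a log2 difference of 3.11, but 2.88 without culture 1, 2.80 without tumor 4 and 2.30 with the length trend taken out, no longer called. Histone genes had 10 of 35 tested (68 on the list) higher in the tumors and none in the cultures, with a median of 1.69 (0.56 with the length trend taken out) and sums of 3204, 2558, 3313 and 5407 CPM against 897, 1444 and 1099 CPM. Without tumor 4, 9 of 29 are called, and without culture 1 there are 9 of 39 beside 1 higher in the cultures. The linker histone Hist1h1e read 29.6, 32.9, 20.5 and 41.4 CPM in the tumors and 0.179, 0.182 and 0.367 CPM in the cultures and Hist1h4d read 33.8, 39.8, 31.3 and 41.2 CPM in the tumors and 0.0893, 0.243 and 0.184 CPM in the cultures, while cell cycle genes lean to the cultures. Transcripts of replication-dependent histones lack the usual poly(A) tail, but the list also holds H1f0, H3f3a and H3f3b, whose transcripts carry it, and H3f3b leads the sums in both materials. The part of library preparation was not tested.

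Genes of the mitochondrial genome had 3 of 10 tested (13 on the list) higher in the tumors (mt-Atp6, mt-Co2 and mt-Co3) and none in the cultures, with a median of -0.55 (-2.39 with the length trend taken out), while the sums are higher in the cultures at 19246, 24538 and 18135 CPM against 8684, 7953, 12952 and 6997 CPM. Small RNA genes and their hosts had 2 of 4 tested (8 on the list, 6 found by name) higher in the tumors, Rpph1 and Scarna2, and none in the cultures, with a median of 2.77 (1.54 with the length trend taken out) and sums of 252, 329, 351 and 508 CPM against 39.9, 52.9 and 69.7 CPM. Nuclear long noncoding RNAs had 2 of 5 higher in the tumors and none in the cultures, with a median of 1.61 and sums of 529.6, 688, 786 and 348 CPM against 269.8, 281 and 232 CPM. Kcnq1ot1, an imprinted RNA that lies antisense to Kcnq1 and so is uncertain in counts that ignore the strand, read 43.8, 66.3, 61.4 and 22.3 CPM in the tumors and 4.702, 4.65 and 4.61 CPM in the cultures. Meg3, an imprinted RNA picked out after its values were seen, read 3.01, 7.27, 5.299 and 2.38 CPM in the tumors and 0 in each culture, a bound of at least 49.3-fold (edgeR quasi-likelihood, Benjamini-Hochberg adjusted p = 7.88e-05). Malat1, the most abundant in both, Neat1 and H19 were not called.

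Outside the lists, genes of several kinds differed toward the tumors. Saa1 and Saa2, acute phase proteins with near-identical sequence and so uncertain levels, read 356, 1079, 745 and 4270.5 CPM in the tumors and 0 in each culture for Saa1 and 145, 606, 373 and 2360.5 CPM in the tumors and 0 in each culture for Saa2. Tumor 4 is highest in both, and the bounds are at least 17693-fold and at least 9558-fold. These bounds rest largely on tumor 4 and are lower without it. Scgb2b27, a secretoglobin with close copies, read 149, 251, 454 and 1200.0 CPM in the tumors and 0 in each culture, again with tumor 4 highest. Foxi1 (ENSMUSG00000047861, chromosome 11, 34204338 to 34208089), a forkhead factor of ion-transporting cells, is more even at 267, 177, 286 and 219 CPM in the tumors and 0 in each culture, a bound of at least 2602-fold (edgeR quasi-likelihood, Benjamini-Hochberg adjusted p = 2.05e-06). G0s2, an inhibitor of fat cell lipase, read 84.3, 135, 183 and 381 CPM in the tumors and 0 in each culture.

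Genes outside the lists also differed toward the cultures. Msln (mesothelin), a surface protein of mesothelium and of several cancers, read 61.7, 156 and 324 CPM in the cultures and 0.0425, 0.329, 0 and 0.0236 CPM in the tumors, 1684-fold higher (edgeR quasi-likelihood, Benjamini-Hochberg adjusted p = 2.22e-05, log2 -10.72, or -12.77 without tumor 2). Hmga2 (ENSMUSG00000056758, chromosome 10, 120361275 to 120476469), a chromatin protein of embryonic and transformed cells, read 93.6, 192 and 179 CPM in the cultures and 0.0851, 0.1796, 0.01596 and 0.212 CPM in the tumors, 1287-fold higher (edgeR quasi-likelihood, Benjamini-Hochberg adjusted p = 2.66e-06). Tbx20, a T-box factor of the heart, read 70.6, 35.3 and 45.6 CPM in the cultures and 0, 0.165, 0.0479 and 0.0236 CPM in the tumors. All cultures are above all tumors in these, and the cultures differ in Msln by more than in Hmga2. Dgkk, a diacylglycerol kinase, read 40.03, 175 and 166 CPM in the cultures and 0.326, 0.1197, 0.112 and 0.377 CPM in the tumors, and Masp1, a protease of the lectin pathway of complement, read 395, 333 and 201 CPM in the cultures and 0.468, 1.95, 0.176 and 0.518 CPM in the tumors. Klhdc8a read 119, 207 and 92.3 CPM in the cultures and 0.468, 0, 0.351 and 0.6599 CPM in the tumors and Insyn1, of inhibitory synapses, read 93.3, 118 and 54.97 CPM in the cultures and 0.284, 0.165, 0.447 and 0.0943 CPM in the tumors. Their folds are 553-fold, 394-fold, 386-fold and 347-fold in that order. The semaphorins Sema3a, Sema3e and Sema7a, guidance cues first known from axons, rose as well. Sema3a read 235, 285 and 225 CPM in the cultures and 1.43, 0.673, 1.34 and 0.872 CPM in the tumors, Sema3e read 152, 85.3 and 53.4 CPM in the cultures and 1.02, 0.539, 0.239 and 0.0471 CPM in the tumors and Sema7a read 55.5, 304 and 81.9 CPM in the cultures and 1.45, 1.09, 0.559 and 0.6599 CPM in the tumors. The secreted protease Adamts6 read 37.2, 73.2 and 48.3 CPM in the cultures and 0.496, 0.284, 0.192 and 0.236 CPM in the tumors, 171-fold higher (edgeR quasi-likelihood, Benjamini-Hochberg adjusted p = 2.46e-06).

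Of the 29 genes absent from tumors, Gata4 and Nppb alone reach 10 CPM in every culture, and both were picked out after their values were seen. Gata4 (ENSMUSG00000021944, chromosome 14, 63198922 to 63271692), a factor of heart and endoderm, read 38.2, 17.1 and 19.2 CPM in the cultures and 0.0142, 0.01496, 0 and 0.0707 CPM in the tumors, a ratio of 995 (interval 426 to 3064) (edgeR quasi-likelihood, Benjamini-Hochberg adjusted p = 4.44e-06). Nppb (ENSMUSG00000029019, chromosome 4, 147985788 to 147987205), which encodes a natriuretic peptide of the heart, read 14.2, 18.1 and 15.4 CPM in the cultures and 0 in each tumor, a bound of at least 225-fold (edgeR quasi-likelihood, Benjamini-Hochberg adjusted p = 7.78e-06). Of the 29, 13 also have 3 counts or fewer in every Ctsd-deficient tumor. At least 1 CPM in each sample is reached by 8 of the 29 in the Ctsd-deficient cells, 11 in the wild type cells kept 12 weeks and 6 in the Ctsd-deficient cells kept 12 weeks.

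The line that stands for culture here is 1 of a pair in the series, so the difference was set beside that of the Ctsd-deficient tumors (4) and Ctsd-deficient cells in 1% FCS (3), which share no sample with it. The test of the difference between the differences (an edgeR interaction in 14 samples) called 453 of 19895 genes (2.28%) as further toward the tumors in wild type and 957 (4.81%) as further toward the cultures, at a Benjamini-Hochberg adjusted p under 0.05 and 3 on the log2 scale. Of the 3399 genes called higher in wild type tumors, 2685 also pass both thresholds in the same direction in the Ctsd-deficient samples, 8 pass in the opposite direction and 397 have a called interaction. Of the 1188 genes called higher in the wild type cultures, 519 also pass, 85 pass in the opposite direction and 280 have a called interaction. Of all 19895 genes, 4468 (22.5%) are called higher in the tumors and 913 (4.59%) higher in the cells in the Ctsd-deficient samples. Genotype and line cannot be told apart here. The tumors of the 2 genotypes were also sequenced in separate runs, so genotype and run cannot be told apart on that side.

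Group means, here scaled over all 20 samples, show the 4 sides of this comparison. Fn1 averaged 48185 CPM in the wild type cultures, 14115 CPM in the Ctsd-deficient ones, 103 CPM in the wild type tumors and 123 CPM in the Ctsd-deficient ones, and its interaction was not called. Col4a1 averaged 4269 CPM in the wild type cultures, 0.0748 CPM in the Ctsd-deficient ones, 144 CPM in the wild type tumors and 259.5 CPM in the Ctsd-deficient ones, an interaction of -16.58 on the log2 scale (edgeR interaction, Benjamini-Hochberg adjusted p = 2.21e-07). The tumor groups are far closer in it than the cell lines. Vim averaged 3090.5 CPM in the wild type cultures, 10.4 CPM in the Ctsd-deficient ones, 311 CPM in the wild type tumors and 465 CPM in the Ctsd-deficient ones, an interaction of -8.79, and Pdgfrb averaged 470.4 CPM in the wild type cultures, 0.195 CPM in the Ctsd-deficient ones, 21.8 CPM in the wild type tumors and 34.6 CPM in the Ctsd-deficient ones, an interaction of -11.81. Col1a1, which was not called between wild type tumors and cultures, averaged 1453 CPM in the wild type cultures, 3.201 CPM in the Ctsd-deficient ones, 464 CPM in the wild type tumors and 616 CPM in the Ctsd-deficient ones, an interaction of -9.22 (edgeR interaction, Benjamini-Hochberg adjusted p = 4.18e-05). Adamts2, a procollagen protease, was also below 8-fold in wild type (log2 -2.27) and averaged 156 CPM in the wild type cultures, 0 CPM in the Ctsd-deficient ones, 32.4 CPM in the wild type tumors and 32.8 CPM in the Ctsd-deficient ones (edgeR interaction, Benjamini-Hochberg adjusted p = 1.76e-05). Pdk4, a kinase that restrains glucose oxidation, averaged 40.5 CPM in the wild type cultures, 0 CPM in the Ctsd-deficient ones, 2.52 CPM in the wild type tumors and 39.2 CPM in the Ctsd-deficient ones (edgeR interaction, Benjamini-Hochberg adjusted p = 0.000518). Some of these levels also differ with time within the wild type line. In the wild type cells kept 12 weeks, Vim averaged 3.92 CPM, Col1a1 1.56 CPM and Pdgfrb 0.382 CPM. Fn1 averaged 22313 CPM there and Col4a1 405 CPM.

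In the other direction, levels in the wild type cultures were below those in the Ctsd-deficient cells. Krt19 averaged 43.5 CPM in the wild type cultures, 471 CPM in the Ctsd-deficient ones, 1485 CPM in the wild type tumors and 960.0 CPM in the Ctsd-deficient ones, an interaction of 4.08 (edgeR interaction, Benjamini-Hochberg adjusted p = 0.000691). Cdkn2b averaged 0 CPM in the wild type cultures, 60.2 CPM in the Ctsd-deficient ones, 11.1 CPM in the wild type tumors and 6.99 CPM in the Ctsd-deficient ones (edgeR interaction, Benjamini-Hochberg adjusted p = 8.64e-07). Slc6a14, an amino acid importer of epithelia, averaged 0 CPM in the wild type cultures, 6.47 CPM in the Ctsd-deficient ones, 16.7 CPM in the wild type tumors and 10.8 CPM in the Ctsd-deficient ones (edgeR interaction, Benjamini-Hochberg adjusted p = 8.12e-06). Nfasc, a cell adhesion protein, averaged 0.00889 CPM in the wild type cultures, 32.7 CPM in the Ctsd-deficient ones, 11.3 CPM in the wild type tumors and 5.94 CPM in the Ctsd-deficient ones, and Hoxb5, a homeobox factor, averaged 0 CPM in the wild type cultures, 25.7 CPM in the Ctsd-deficient ones, 0.715 CPM in the wild type tumors and 1.72 CPM in the Ctsd-deficient ones. Cdkn2b, Slc6a14 and Hoxb5 have 0 counts in every wild type culture.

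**Figure D4:**
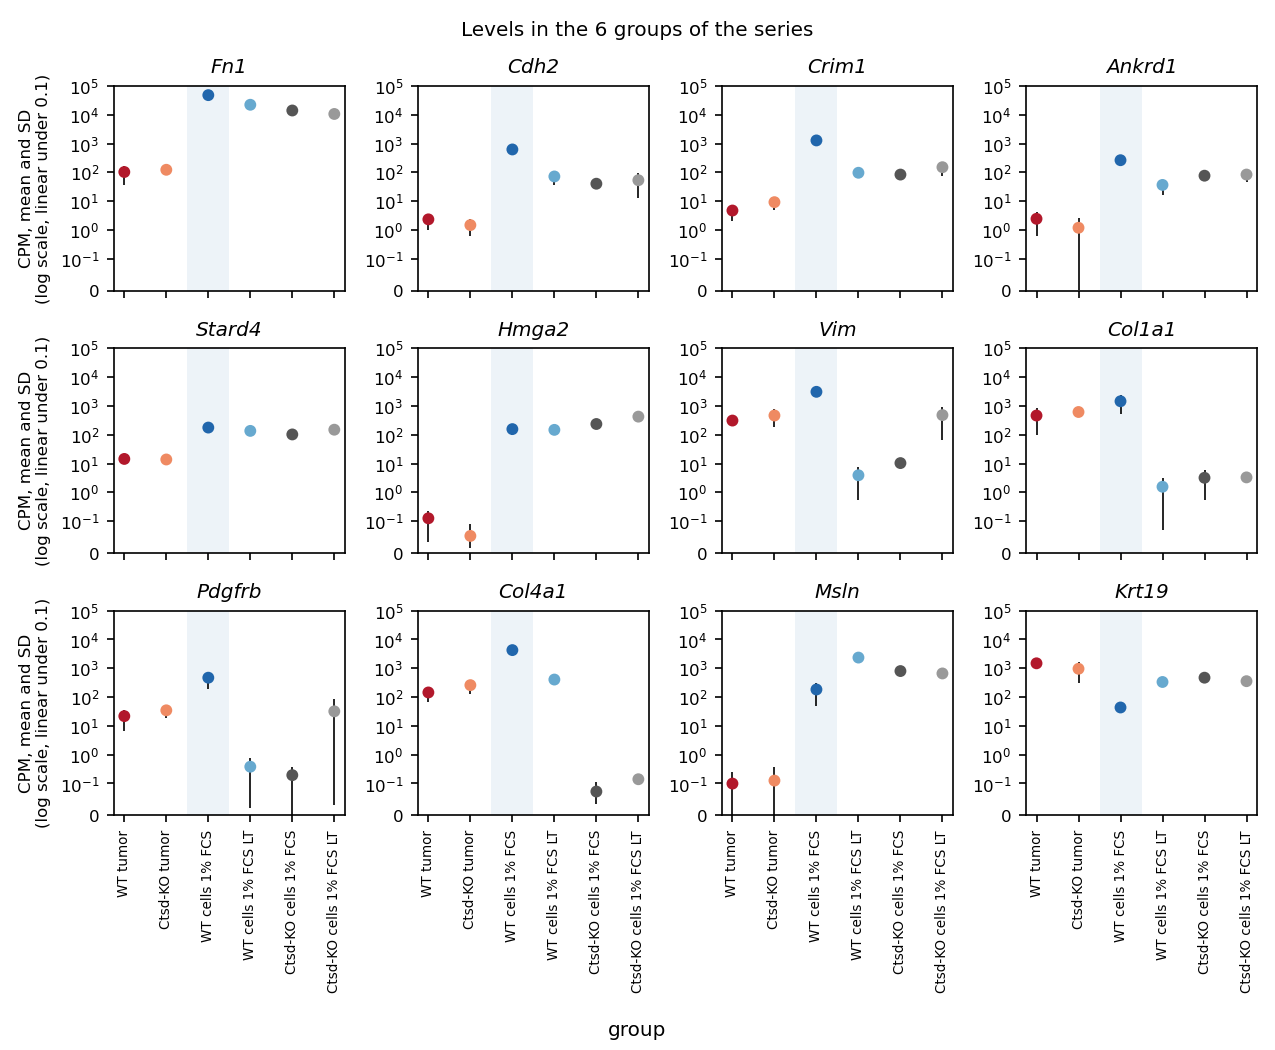
Mean CPM (points, log scale, linear under 0.1) and SD (lines) of 12 genes in the 6 groups of the series, scaled over all 20 samples, with the wild type cultures shaded. Fn1 is high in all 4 cell groups. Pdgfrb averages 470.4 CPM in the wild type cells kept 10 days, 0.195 CPM in the Ctsd-deficient ones and 0.382 CPM in the wild type cells kept 12 weeks.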

How the data were processed

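Total RNA of tumors and cultured cells was sequenced. Per the submitters' notes the authors mapped the reads with STAR to mm10, after trimming with Trimmomatic per the paper, and deposited raw counts per gene, of which the unstranded counts were used here. The annotation behind the counts is not given in the sources used here. Symbols, positions and exon lengths come from GENCODE M21, which holds 45143 of the 45706 gene identifiers. Depth was 49725437 to 62327541 counts in a tumor and 34533201 to 37035232 in a culture, so that 3 counts stand for 0.0911 CPM or less. Low genes were removed with filterByExpr, libraries were scaled by TMM, and groups were compared with the two-sided quasi-likelihood test of edgeR 4.0.16 in R 4.3.3, and p-values were adjusted over every tested gene by Benjamini-Hochberg. The steps were tested on simulated data. The 40 gene lists, which hold 729 genes, and the members of the comparison were chosen with earlier results of these data known. Genes were named by a rule: Ctsd, 10 markers, up to 3 called genes per list with the largest difference, no overlap and a mean of 10 CPM, the 15 largest in each direction at 50 CPM, and the 5 largest interactions in each direction. Not all are printed. Eomes, Lck, Col5a1, Pdgfrb, Prlr, Csn3, Ccn1, Ccn2, Vegfa, Csf1, Lif, Cxcl12, Stard4, Meg3, Gata4, Nppb and Xist fall outside this rule and were chosen after their values were seen, as were list members named without values. Alternatives were DESeq2 1.42.0, limma 3.58.1 (voom, also with a spread per group), DESeq2 size factors, total counts, protein-coding genes alone, no filter, reverse-strand counts for the cells, all 20 samples fitted together, a replicate block, leaving out each sample, and a removed trend over exon length, the last chosen after seeing the data.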

Additional observations from a re-analysis of the deposited data

Results flagged for a closer look

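In each group of 4 tumors the gap between the most extreme sample and its neighbour was divided by the range, and 10 of 168 genes and lists tested exceed Dixon's limit. Chance flags about 1 in 20 groups. Tumor 4 is highest in Myl1 (0.989 of the range), in the summed skeletal muscle genes (0.981), in Ecscr (0.925) and in Oas1a (0.916). It is lowest in Fads2 (0.945), Slc7a1 (0.864) and the summed fatty acid synthesis genes (0.897). Tumor 1 is highest in Gzmb (0.902), tumor 2 highest in Msln (0.871) and tumor 3 lowest in the summed NRF2 targets (0.934).

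The difference between wild type tumors and cultures was tested against that between Ctsd-deficient tumors and cells (edgeR quasi-likelihood test of the interaction, Benjamini-Hochberg). It was called in 42 of the 130 genes printed, where 8 of the 130 were named for a large interaction, and in 2.28% and 4.81% of all tested genes in the 2 directions. The count among printed genes is raised by that choice. Many others were named for a large difference in the same wild type samples, which can also raise it. The values are the interaction on the log2 scale, positive where wild type lies further toward the tumors. Positive ones are those of the epithelial and milk genes Krt18 (3.67), Krt19 (4.08), Ehf (3.96), Elf3 (3.09) and Csn3 (3.90) and of S100a8 (3.98), Gfap (4.65) and Mmp3 (3.95). Negative ones among matrix and mesenchymal genes are Col4a1 (-16.58), Col4a2 (-15.46), Pdgfrb (-11.81), Col1a1 (-9.22), Col5a1 (-9.11), Vim (-8.79), Hspg2 (-4.48) and Cdh2 (-3.26). Among YAP target, cytokine and p53 genes they are Crim1 (-4.89), Cxcl12 (-3.67) and Eda2r (-6.02), and that of the fatty acid gene Fasn is -3.62. The others are Sema3e (-9.15), Sema7a (-5.81), Sema3a (-4.73), Masp1 (-6.11), Klhdc8a (-3.41), Egr3 (-7.02) and Kcnq1ot1 (-5.60).

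Where every sample of a group has 3 counts or fewer, the fitted size is no measure and the adjusted p of the edgeR interaction (Benjamini-Hochberg) is given alone. Wild type lies further toward the tumors in Cdkn2b (8.64e-07), Slc6a14 (8.12e-06), Nfasc (3.46e-05), Hoxb5 (0.000161), G0s2 (0.000796), Ptprc (0.00794), Ltf (0.0239), Oas1a (0.0247), Cd74 (0.0304) and Pigr (0.0367). It lies further toward the cultures in Adamts2 (1.76e-05), Tbx20 (6.49e-05), Pdk4 (0.000518), Cnn1 (0.00176) and Oxtr (0.0285). The interaction can lie on the tumor side. Fasn averaged 2261 and 2191 CPM in the wild type and Ctsd-deficient cells but 194 (SD 67.3) and 2337 (SD 1994) CPM in the tumors, where the summed adipocyte genes are at 4578 and 22380 CPM, and Gfap 0.281 and 0.451 CPM in the cells but 32.2 (SD 33.9) and 2.05 (SD 1.80) CPM in the tumors. Causes were not tested.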

How the results depend on the processing

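The counts of genes kept within 1.5 times their value under each alternative except the higher minimum. At 10 CPM in place of 1 CPM, 134 genes are absent from culture and 2 from tumors, as fewer genes enter. Genes higher in the tumors number 2898 to 3775 when 1 sample is left out and 2565 to 4462 under the other alternatives, and genes higher in the cultures 1097 to 1241 and 883 to 1512. With the replicate block there are 3341 and 1146. The interaction counts are 383 to 482 and 784 to 998 when 1 sample is left out, and the absent genes 706 to 762 and 34 to 40, as fewer samples must pass. Of 130 genes printed, 120 kept direction and call in all alternatives. Of 40 list medians, 29 moved by more than the spread between samples or changed sign in at least 1 alternative, 18 of them only with the length trend removed. The difference of Ctsd lies between -0.77 and 0.0020 when 1 sample is left out, is -1.24 with the length trend removed and lies between -0.46 and -0.23 under the others. With the length trend removed, chosen after seeing the data, Xist and the sex check list are at 0.44, against -0.93, neither called. That setting moves the median of all genes by -0.31, and protein-coding genes alone by 0.17. Mki67 and Rps14 lose their call in the replicate block, Junb among protein-coding genes, with reverse-strand counts and with total counts, and Myl1 in DESeq2, which gives it no adjusted p. Causes were not tested. Depth limits what absent means to about 0.0911 CPM in a culture, and run, library type, RNA input and material cannot be told apart.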
